A study of Mus musculus with 6 samples.

Results

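The genes described here are 9 genes that set how much retinoic acid a cell holds and how it answers to it: the synthesis enzyme Aldh1a2, the reductase Dhrs3, the breakdown enzymes Cyp26a1 and Cyp26b1, the carrier proteins Crabp1 and Crabp2, and the receptors Rara, Rarb and Rarg. They were taken by gene symbol from tables of 24054 genes, and all 9 were present in each table. RNA came from a single mouse embryonic stem (ES) cell line, termed DKI, that carries a Foxa2-Venus fusion reporter on one allele and a Sox17-Cherry fusion reporter on both, in every library including those of day 0. Cells that were negative for both reporters were sorted at day 0 (d0) from ES medium with serum and LIF. Cells positive for Foxa2-Venus and negative for Sox17-Cherry were sorted at day 3 (d3F), and cells positive for both reporters at day 5 (d5FS), from endoderm medium with Wnt3a and Activin A. Each population had 2 libraries, so 6 libraries in all, with 16457729 to 22768686 expected counts per library. Between d0 and the later populations day, sort gate and medium changed together, and between d3F and d5FS day and sort gate did, so their parts in any difference cannot be told apart.

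Retinoic acid is made from vitamin A by oxidation of retinol to retinaldehyde and then by retinaldehyde dehydrogenases such as Aldh1a2, while Dhrs3 reduces retinaldehyde back to retinol. CYP26 enzymes oxidise retinoic acid for removal, CRABP proteins carry it in the cytoplasm, and RAR proteins paired with RXR proteins bind paired DNA half-sites and switch target genes on when the ligand is bound. In the embryo retinoic acid patterns the gut tube along its length, and Cyp26a1, Rarb and Dhrs3 are textbook targets of the pathway they belong to.

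In a search with 3 spellings of the half-site, the start regions of Cyp26a1 and Rarb held a paired half-site of the kind RAR-RXR dimers bind. No other member with a start window did, and further spellings of the half-site were not searched. The search covered 14 RefSeq windows (GRCm38.p6, 250 bases before to 50 after a start site) of 8 members, and Crabp2 had no window. It looked on both strands for 2 half-sites, each read as AGGTCA or as AGTTCA or as GGTTCA, in the same orientation with 5 bases between them (a direct repeat 5). Such a repeat stood in 20 of all 32851 windows, or 0.0609%. With AGGTCA as the only half-site 3 windows of the table and no member matched. The repeats of Cyp26a1 and Rarb consist of AGTTCA and GGTTCA, so both matches depend on the choice of these spellings and are no test. The share of 0.0609% holds only for the 3 spellings searched. Repeats with spacers of 1 and 2 bases stood in 0.1% and 0.21% of windows and in no member. The Cyp26a1 repeat lay 32 to 16 bases before the start site of its RefSeq window on the opposite strand (chr19:37697776-37697792), and the Rarb repeat 53 to 37 bases before it on the strand of the gene (chr14:16575513-16575529). Distances depend on the annotated start: GENCODE begins Cyp26a1 at 37697798, nearer to the repeat, and the RefSeq span of the gene begins at 37697738, so that the repeat lies inside it. Longer Rarb transcripts in the GENCODE annotation also run through the Rarb site. Both are shown because these genes had the largest rises among the members from d0 to d5FS. Each line reads 5′ to 3′ along the gene's own strand for 30 bases (chr19:37697770-37697799, plus strand, and chr14:16575506-16575535, minus strand), with the half-sites in capitals.
Cyp26a1: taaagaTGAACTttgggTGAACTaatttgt
Rarb: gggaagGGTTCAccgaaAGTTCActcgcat
Read along its own strand, the Cyp26a1 repeat is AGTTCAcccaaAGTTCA, which shares its second half-site with the Rarb repeat, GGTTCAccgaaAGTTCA. A match of letters is a description of the window and not a measured binding site.

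Levels are given as CPM (counts per library scaled to a fixed total), which compare one gene between libraries, and as TPM (transcripts scaled to a fixed total), which take gene length into account and compare genes within a library. TPM values are printed for each library but changes were tested on counts only, because 7 RNAs without a poly(A) tail took between 213400 and 356100 TPM in each library. A gene was called higher or lower where the adjusted p of edgeR's quasi-likelihood test was under 0.05 and the absolute log2 fold change was over 1. Of the 9 members 8 passed the filter on low counts. Rarb passed it through d3F and d5FS and Aldh1a2 through d0 and d3F. Cyp26b1 did not pass, with 5 and 6 expected counts in d0, 1 and 5 in d3F, then 1 and 9 in d5FS.

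The labelled populations carried the markers of their stage. Summed TPM of 7 definitive endoderm markers, which include the sorted genes Foxa2 and Sox17, was 1.44 to 2.6 in d0, 53.03 to 62.68 in d3F and 141.3 to 163.2 in d5FS, and 7 of 7 were called higher in d5FS than in d0. Summed TPM of 6 pluripotency markers was 573.1 to 622.8 in d0 and 18.64 to 35.65 in d5FS, and 6 of 6 were called lower. In d3F the 2 libraries stood apart in pluripotency markers, at 461.2 in replicate 1 and 145.6 in replicate 2. TPM does not put these 2 libraries on one scale, so the size of this gap depends on the unit. Cyp26a1, for one, had 58.35 and 48.68 TPM in d3F replicates 1 and 2 but 137 and 191 CPM. Of 9 visceral and parietal endoderm markers 6 were called higher in d5FS than in d0 and 0 lower. Their sums were 48.73 to 51.79 in d0 and 72.71 to 81.89 in d5FS. Rbp4, Ttr and Apoa4 were at 12.74 and 17.74, 4.82 and 5.82, and 0.94 and 0.53 TPM in d5FS, against 0.54 TPM or less for each in d0. Not all went that way. Rhox5 had 28.14 and 38.36 TPM in d0 and 16.64 and 17.72 TPM in d5FS. Amn had 0.7 and 0.52 TPM in d0 and 0.67 and 1 TPM in d5FS. Sox7 and Cubn were at 0.36 TPM or less in every library. Of 6 feeder fibroblast markers 3 were called higher in d5FS than in d0 and 0 lower, beside 12.4% and 10.4% of all genes tested. Summed TPM of the 6 was 1.21 to 3.25 in d0 and 11.55 to 18.99 in d5FS, led by Col1a2 at 10.18 and 9.37. Thy1 had 1.31 and 0.3 TPM in d0 and 0.31 and 0.09 TPM in d5FS. Twist2 had 0.96 and 0.07 TPM in d0 and 0.23 and 0.06 TPM in d5FS. Dcn was at 0.27 TPM or less in every library. The part of these markers in the results below was not tested. In bulk RNA fewer cells of a type and less RNA per cell cannot be told apart.

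**Figure D1:**
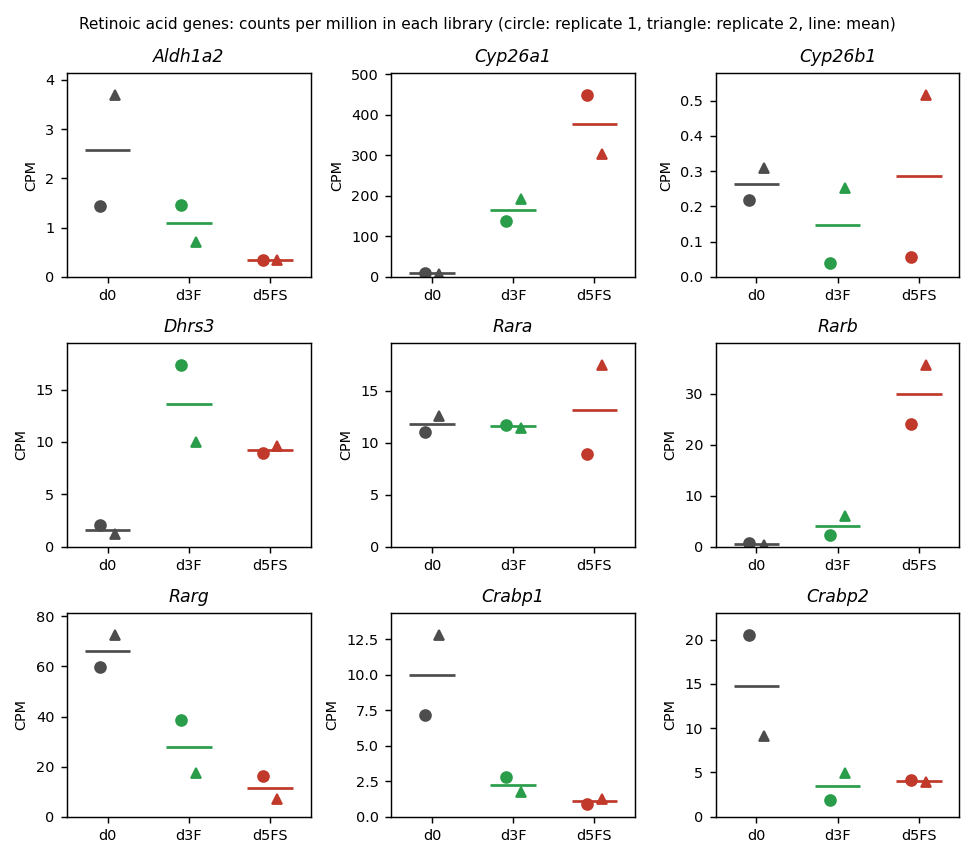
CPM (linear axes from 0) of the 9 genes in the d0, d3F and d5FS libraries, with a circle for replicate 1, a triangle for replicate 2 and a line at the mean of 2. Cyp26a1 and Rarb climb from d0 to d5FS, Rarg and Crabp1 fall, Rara shows no ordered change, and Cyp26b1 stays under 0.6 CPM in every library.

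The first comparison, d0 with d3F, asks what changed as ES cells became Foxa2-positive mesendoderm. Cyp26a1, Dhrs3 and Rarb rose, by 19.4-fold, 8.24-fold and 7.86-fold. The test called 0 members lower (edgeR), although 3 were lower at an unadjusted p under 0.05 and DESeq2 called 2 lower. These 3 of 8 members tested stand against 683 of 14539 genes called in either direction (4.7%), of which 407 (2.8%) were higher and 276 (1.9%) lower. The median log2 fold change of the 8 members was -0.626, and that of all genes tested was -0.00586.

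Cyp26a1 (chr19:37697798-37701536, plus strand, in GENCODE M21 on GRCm38, as for all gene positions here), the main enzyme of retinoic acid removal in the early embryo, had 9.39 and 7.53 CPM in the 2 d0 libraries and 137 and 191 CPM in d3F. The d3F libraries were both far above the d0 libraries. The log2 fold change was 4.28 (SE 0.377, adjusted p = 0.00279, edgeR). This call held in all 15 alternative analyses.

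Dhrs3 (chr4:144892827-144928209, plus strand), the retinaldehyde reductase, had 2.06 and 1.23 CPM in d0 and 17.3 and 9.95 CPM in d3F. Both d3F libraries were above both d0 libraries, with replicate 1 the higher of each pair. The log2 fold change was 3.04 (SE 0.474, adjusted p = 0.0146, edgeR). The call was lost without d0 replicate 2 and without d3F replicate 1, where the log2 fold change was 2.74 and 2.60 (highest adjusted p over all alternatives 0.0521).

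Rarb (chr14:16430839-16819156, minus strand), a receptor whose own gene answers to retinoic acid, had 0.658 and 0.359 CPM in d0, from 15 and 7 expected counts, and 2.23 and 5.96 CPM in d3F, from 55 and 118. The groups did not overlap, and within d3F replicate 2 was the higher library. The log2 fold change was 2.97 (SE 0.604, adjusted p = 0.033, edgeR). The call was lost without d0 replicate 2 (2.63), without d3F replicate 2 (2.12) and without d5FS replicate 1 (2.99) or 2 (2.99). It was also lost in a fit of only d0 and d3F (2.98, adjusted p = 0.0745, edgeR). Tests against a log2 fold change of 1 lost it too (adjusted p = 0.0887, glmTreat, and 0.0627, DESeq2).

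The carriers and Rarg had lower values in d3F that did not pass the test. Crabp1 (chr9:54764748-54773110, plus strand) had 7.15 and 12.8 CPM in d0 and 2.80 and 1.72 CPM in d3F (log2 fold change -2.13, SE 0.511, adjusted p = 0.0538, edgeR). It missed the threshold narrowly, and it was called lower in the fit without d0 replicate 1 (log2 fold change -2.49), with DESeq2, with a replicate block and with no filter on low counts. Crabp2 (chr3:87948666-87953376, plus strand) had 20.5 and 9.07 CPM in d0 and 1.95 and 4.90 CPM in d3F (log2 fold change -2.12, SE 0.576, adjusted p = 0.0753, edgeR). For both carriers every d0 library was above every d3F library.

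Rarg (chr15:102234938-102257517, minus strand), a receptor that ES cells are known to express, had 59.7 and 72.5 CPM in d0 and 38.6 and 17.3 CPM in d3F (log2 fold change -1.24, SE 0.49, adjusted p = 0.195, edgeR). The d3F libraries differed from each other by more than the d0 libraries did. Pou5f1, the core pluripotency factor, differed in the same direction in TPM, at 406 in d3F replicate 1 and 128 in replicate 2. TPM does not put these 2 libraries on one scale, and the part of Pou5f1 in the Rarg values was not tested. Aldh1a2 (chr9:71215789-71296243, plus strand) had 1.45 and 3.69 CPM in d0 and 1.46 and 0.707 CPM in d3F, so the groups overlapped (log2 fold change -1.23, SE 0.663, adjusted p = 0.353, edgeR). Rara (chr11:98927818-98974942, plus strand) lay between 11.01 and 12.6 CPM in all 4 libraries (log2 fold change -0.02, SE 0.397).

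**Figure D2:**
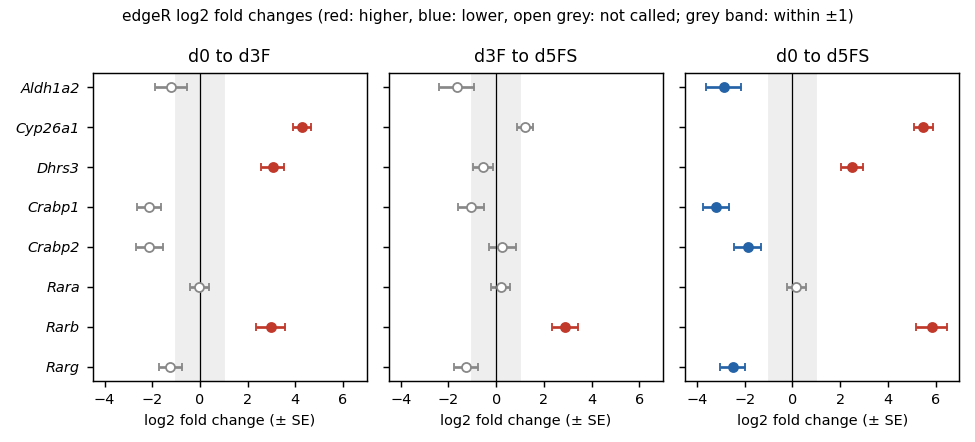
Log2 fold changes with standard errors of the 8 members tested, in 3 panels for d0 to d3F, d3F to d5FS and d0 to d5FS, red for called higher, blue for called lower and open grey for not called. From d0 to d5FS Cyp26a1 and Rarb lie at 5.48 and 5.84, Crabp1, Aldh1a2, Rarg and Crabp2 lie between -3.19 and -1.87, and Rara lies at 0.16.

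The second comparison, d3F with d5FS, asks what changed as mesendoderm became Sox17-positive endoderm. Rarb rose again, by 7.31-fold, and was the only member called by edgeR. Of the rest 0 were called lower, against 1 lower at an unadjusted p under 0.05 and 0 called lower by DESeq2. This 1 of 8 members stands against 224 of 14539 genes called (1.54%), 157 (1.08%) higher and 67 (0.461%) lower. The median log2 fold change of the members was -0.185, and that of all genes was 0.011.

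Rarb went from 2.23 and 5.96 CPM in d3F to 24.1 and 35.6 CPM in d5FS. Both d5FS libraries were above both d3F libraries. The log2 fold change was 2.87 (SE 0.542, adjusted p = 0.0453, edgeR). Leaving out any one of the d3F or d5FS libraries ended the call, with log2 fold changes of 2.31 and 3.73 without d3F replicate 1 and 2, 3.11 and 2.56 without d5FS replicate 1 and 2, and a highest adjusted p over all alternatives of 0.279.

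Cyp26a1 went from 137 and 191 CPM to 449 and 304 CPM, again without overlap, but its log2 fold change of 1.20 (SE 0.332, adjusted p = 0.116, edgeR) did not pass; DESeq2 and the fit with no filter on low counts called it. Dhrs3 showed no further gain, at 8.91 and 9.63 CPM in d5FS (log2 fold change from d3F -0.56, SE 0.432, adjusted p = 0.538, edgeR). Rarg was lower in d5FS, at 16.1 and 7.17 CPM (log2 fold change -1.26, SE 0.495, adjusted p = 0.229, edgeR). For Crabp2 the groups overlapped, with 4.14 and 3.96 CPM in d5FS, and its log2 fold change of 0.25 turned to -0.29 without d3F replicate 1. Of the remaining members, Crabp1 and Aldh1a2 had log2 fold changes of -1.06 (SE 0.529) and -1.66 (SE 0.745) that did not pass, with no overlap between groups.

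Over the whole course, d0 with d5FS, 7 of the 8 members tested were called. Cyp26a1, Rarb and Dhrs3 were higher in d5FS, and Crabp1, Rarg, Aldh1a2 and Crabp2 were lower. Among all genes 3313 of 14539 were called (22.8%), 1800 (12.4%) higher and 1513 (10.4%) lower. The median log2 fold change of the members was -0.853 and that of all genes was 0.0175.

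Among the enzymes, Cyp26a1 had a mean of 8.46 ± 1.31 CPM (SD, n = 2) in d0 and 377 ± 102 CPM (SD, n = 2) in d5FS, a 44.5-fold rise (log2 fold change 5.48, SE 0.398, adjusted p = 0.000916, edgeR), and the call held in all 15 alternatives. Dhrs3 had a mean of 1.65 ± 0.588 CPM (SD, n = 2) in d0 and 9.27 ± 0.511 CPM (SD, n = 2) in d5FS, a 5.59-fold rise (log2 fold change 2.48, SE 0.468, adjusted p = 0.00963, edgeR). Aldh1a2 had 1.45 and 3.69 CPM in d0 against 0.340 and 0.344 CPM in d5FS, where each library held 6 expected counts. It was 7.37-fold lower (log2 fold change -2.88, SE 0.745, adjusted p = 0.0276, edgeR), but the call was lost without d0 replicate 2, where the log2 fold change was -2.05, and without d5FS replicate 1 or 2, where it was -2.88 for both (highest adjusted p over all alternatives 0.267).

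Both carriers, which bring retinoic acid to the CYP26 enzymes or to the nucleus, were lower in d5FS. Crabp1 fell from a mean of 9.98 ± 4.01 CPM (SD, n = 2) to 1.08 ± 0.25 CPM (SD, n = 2), or 9.16-fold (log2 fold change -3.19, SE 0.546, adjusted p = 0.00684, edgeR); the call was lost without d5FS replicate 1 (-2.98). Crabp2 fell from 14.8 ± 8.10 CPM (SD, n = 2) to 4.05 ± 0.132 CPM (SD, n = 2), or 3.66-fold (log2 fold change -1.87, SE 0.572, adjusted p = 0.0476, edgeR). The wide spread of Crabp2 in d0 came from 20.5 CPM in replicate 1 against 9.07 CPM in replicate 2, and its call was lost without d0 replicate 1 (-1.18) and without d5FS replicate 1 (-1.91) or 2 (-1.83). The highest adjusted p over all alternatives was 0.0581 for Crabp1 and 0.779 for Crabp2.

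The 3 receptors took different courses. Rarb rose 57.4-fold, from 0.508 ± 0.212 CPM (SD, n = 2) in d0 to 29.9 ± 8.12 CPM (SD, n = 2) in d5FS (log2 fold change 5.84, SE 0.648, adjusted p = 0.00196, edgeR), and this call held in all 14 alternatives that kept the gene. Rarg fell 5.68-fold, from 66.1 ± 9.08 to 11.6 ± 6.33 CPM (SD, n = 2 each; log2 fold change -2.51, SE 0.513, adjusted p = 0.0127, edgeR), and lost its call without d5FS replicate 2 (-2.03, highest adjusted p over all alternatives 0.0635). Rara had 11.01 and 12.6 CPM in d0 and 8.91 and 17.5 CPM in d5FS, with overlap and a log2 fold change of 0.16 (SE 0.397, adjusted p = 0.795, edgeR). Its sign turned to -0.39 without d5FS replicate 2.

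Rarb needs care because its 3′ end meets Top2b, a topoisomerase gene on the opposite strand. The 2 genes share 4624 bases in GENCODE and none in RefSeq, where Top2b ends at 16430787 and Rarb starts at 16430839 on chromosome 14, and strand-specific counting was not stated. Top2b had 69.5 and 31.8 CPM in d0, 135 and 101 CPM in d3F, then 120 and 76.1 CPM in d5FS, and was called in no comparison (log2 fold change from d0 to d5FS 0.95, SE 0.423, adjusted p = 0.133, edgeR). The antisense RNA Gm48162 also overlaps Rarb, by 4859 bases.

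**Figure D3:**
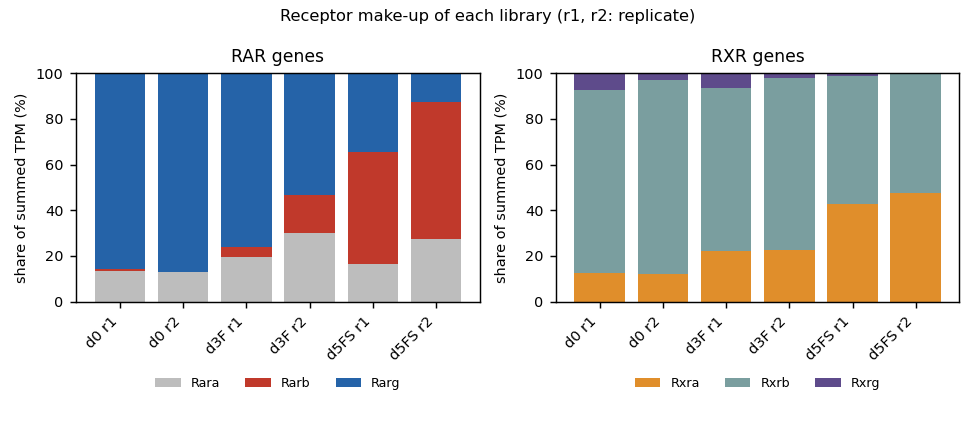
Percent of summed TPM taken by each RAR gene (left) and each RXR gene (right) in each of the 6 libraries. Rarg holds 85.8% and 86.8% of RAR TPM in d0, and Rarb holds 49% and 59.9% in d5FS, while the Rxra share of RXR TPM goes from 12.5% and 11.9% to 42.8% and 47.4%.

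Set side by side per length within each library, the order of the receptors changed. In d0 Rarg made up 85.8% and 86.8% of summed RAR TPM in replicates 1 and 2, Rara 13.3% and 12.8%, and Rarb 0.897% and 0.399%. In d3F Rarg was still first, at 76.3% and 53.1%, with Rara at 19.7% and 30.1% and Rarb at 4.03% and 16.8%. In d5FS Rarb was first, at 49% and 59.9%. Second place differed between the d5FS libraries, with Rarg at 34.5% and Rara at 16.6% in replicate 1 and Rara at 27.3% and Rarg at 12.8% in replicate 2. The TPM ratio of Rarg to Rarb was 95.7 and 217 in d0, 18.9 and 3.15 in d3F, then 0.704 and 0.213 in d5FS.

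The CYP26 family consisted almost wholly of Cyp26a1, which held 96.7% to 99.8% of summed CYP26 TPM in the 6 libraries. Cyp26b1 was at 0.03 TPM or less in each. The retinaldehyde dehydrogenase genes Aldh1a1, Aldh1a2 and Aldh1a3 were low throughout. Together they stood at 0.99 and 0.66 TPM in d0, 0.61 and 0.27 TPM in d3F, then 0.25 and 0.17 TPM in d5FS. The TPM ratio of Cyp26a1 to Aldh1a2 was 8.48 and 2.67 in d0, 122 and 348 in d3F, then 1630 and 1140 in d5FS, where it rests on 6 expected counts of Aldh1a2 per library. The carriers kept no fixed order, since Crabp1 held 28.9% and 62.1% of summed CRABP TPM in d0, 62.6% and 28.9% in d3F, then 20.3% and 26.9% in d5FS.

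A wider list of 66 retinoid genes beside the members, covering uptake, oxidation, breakdown, binding, receptor partners, coregulators and known targets, had 65 genes in the tables, of which 47 were tested. From d0 to d3F edgeR called 1 of them higher and 0 lower, beside 2.8% and 1.9% of all genes tested. There 9 were higher and 4 lower at an unadjusted p under 0.05, and DESeq2 called 3 higher and 3 lower. From d3F to d5FS edgeR again called 1 higher and 0 lower, beside 1.08% and 0.461% of all genes tested. In that step 9 and 7 had an unadjusted p under 0.05, and DESeq2 called 4 and 4. From d0 to d5FS 11 of the 47 were called higher and 4 lower, where 12.4% and 10.4% of all genes tested were. Ttr, Rdh1, Rdh5 and Nr2f2 passed the filter on low counts through d5FS only, so the choice of genes tested favoured a higher value there. Cdx1, called lower in d5FS, passed it through d0 only, which favoured a lower value in d5FS. The median log2 fold changes of these 47 genes were 0.184, 0.036 and 0.0524 in the 3 comparisons, in the same order.

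Of the genes of retinoid uptake and oxidation, counting the members among them, 7 of 18 tested were called higher and 3 lower from d0 to d5FS, beside 12.4% and 10.4% of all genes. Rbp4, the plasma carrier of retinol, had 0.439 and 1.28 CPM in d0, 2.19 and 3.49 CPM in d3F, then 20.8 and 44.9 CPM in d5FS. It rose from d0 to d5FS (log2 fold change 5.26, SE 0.662, adjusted p = 0.00294, edgeR) and from d3F to d5FS (3.53, SE 0.596, adjusted p = 0.034, edgeR), the latter call being lost without either d3F or either d5FS library (2.87 to 3.97, highest adjusted p over all alternatives 0.256). Ttr, its partner in plasma, had 0 and 3 expected counts in d0, 0 and 13 in d3F, then 189 and 352 in d5FS. Rbp4 and Ttr are also visceral endoderm markers, from the marker list of which 6 of 9 genes were called higher in d5FS than in d0.

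Stra6, the cell surface receptor for Rbp4, had 0.263 and 0.461 CPM in d0 and 2.38 and 4.64 CPM in d5FS (log2 fold change 3.27, SE 0.668, adjusted p = 0.0126, edgeR), a call lost without d5FS replicate 2 (2.72, adjusted p = 0.0713, edgeR). Rdh11, a retinaldehyde reductase, was the one listed gene called from d0 to d3F, with 30.8 and 32.9 CPM in d0 and 97.5 and 129 CPM in d3F (log2 fold change 1.83, SE 0.288, adjusted p = 0.0148, edgeR). That call was lost without d0 replicate 2 (1.89) and without d3F replicate 2 (1.63), with a highest adjusted p over all alternatives of 0.403. It stood at 66.5 and 73.2 CPM in d5FS (log2 fold change from d0 1.13, SE 0.283, adjusted p = 0.0248, edgeR), where the call was lost when any of the 6 libraries was left out (1.07 to 1.20, highest adjusted p over all alternatives 1). A pair of retinol dehydrogenase genes were near the detection limit in d0, Rdh1 with 1 and 0 expected counts in d0 and 35.83 and 30 in d5FS, and Rdh5 with 2 and 4 in d0 and 24 and 11 in d5FS. The call of Rdh1 was lost without d5FS replicate 1 (log2 fold change 5.87, adjusted p = 0.0654, edgeR), and that of Rdh5 in 10 of 14 alternatives, among them DESeq2 and each fit that left out a library (2.08 to 3.43, highest adjusted p over all alternatives 0.948). Dhrs4 fell from 16.9 and 21.8 CPM to 4.82 and 6.99 CPM (log2 fold change -1.71; -1.47 without d5FS replicate 1, where the call was lost, highest adjusted p over all alternatives 0.509), and Adh5, an alcohol dehydrogenase of broad use, from 257 and 387 CPM to 130 and 139 CPM (log2 fold change -1.26). The call of Adh5 was lost when any library but d0 replicate 1 was left out (-1.30 to -0.93, highest adjusted p over all alternatives 1).

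Among the partners of the receptors, Rxra, which forms the dimer with RAR proteins on DNA, had 13.8 and 16.2 CPM in d0, 31.5 and 37.3 CPM in d3F, then 66.8 and 116 CPM in d5FS. The 3 populations did not overlap, and the rise from d0 to d5FS passed (log2 fold change 2.60, SE 0.361, adjusted p = 0.00363, edgeR) in the main analysis and in all 15 alternatives. Rxrb lay between 40.7 and 59.8 CPM in all 6 libraries (log2 fold change from d0 to d5FS 0.08, SE 0.32). Rxrg was lower in d5FS, at 0.567 and 0.115 CPM against 3.16 and 1.54 CPM in d0, without passing (log2 fold change -2.76, SE 0.891, adjusted p = 0.0557, edgeR). The Rxra share of RXR TPM was 12.5% and 11.9% in d0, 22.2% and 22.7% in d3F, then 42.8% and 47.4% in d5FS. Of 14 coregulators tested edgeR called 0 higher and 1 lower from d0 to d5FS, beside 12.4% and 10.4% of all genes. At an unadjusted p under 0.05, and by DESeq2, 0 were higher and 2 lower. The one called was Zfp423, a zinc finger protein (log2 fold change -1.66, SE 0.406, adjusted p = 0.0229, edgeR), and its call was lost without d0 replicate 1 (-1.31) and without d5FS replicate 1 (-1.68) or 2 (-1.65), with a highest adjusted p over all alternatives of 0.766.

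**Figure D4:**
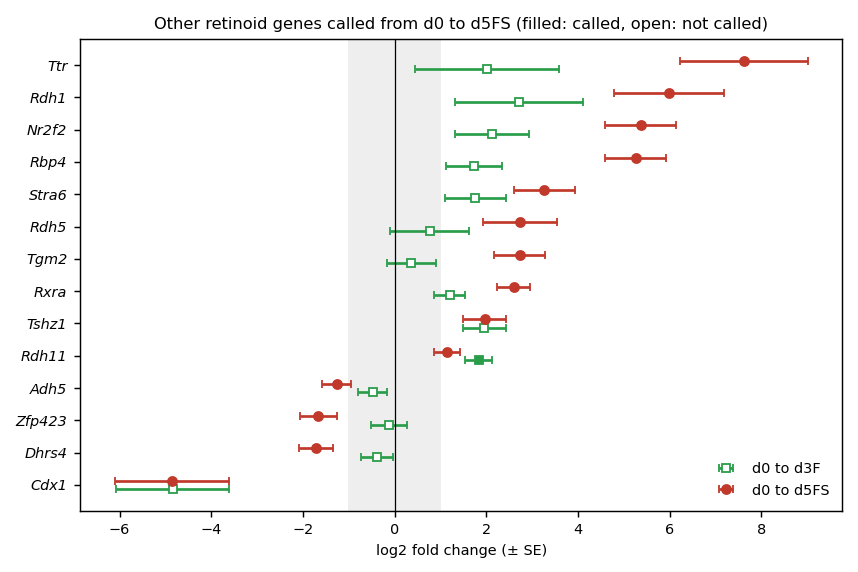
Log2 fold changes with standard errors of 14 further retinoid genes called from d0 to d5FS (red circles), with the same genes from d0 to d3F (green squares, filled where called). Of these 14 genes 10 lie to the right of 0 and 4 to the left, and Rdh11 at 1.83 is the filled square; bars are wide for Ttr and Rdh1, which had 3 counts or fewer in each d0 library.

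Of 26 genes known as retinoic acid targets, members included, 17 were tested. The filter on low counts left out the rest, among them Hox genes with 8 or fewer expected counts in every library. Targets that stayed low throughout are therefore not among the 17. From d0 to d3F 3 were called higher and 0 lower, beside 2.8% and 1.9% of all genes. Those 3 were the members Cyp26a1, Dhrs3 and Rarb. From d0 to d5FS 8 were called higher and 2 lower, beside 12.4% and 10.4% of all genes. Beside the members, Nr2f2, a nuclear receptor, went from 0.0877 and 0.102 CPM in d0 to 2.61 and 5.73 CPM in d5FS (log2 fold change 5.37, SE 0.77, adjusted p = 0.00407, edgeR). Tgm2, a transglutaminase, went from 5.26 and 7.07 CPM to 62.3 and 19.7 CPM (log2 fold change 2.73, SE 0.554, adjusted p = 0.0123, edgeR), with replicate 1 far above replicate 2 in d5FS; without d5FS replicate 1 the log2 fold change was 1.67 and the call was lost (adjusted p = 0.0775, edgeR). Tshz1, a zinc finger gene, went from 1.14 and 1.02 CPM in d0 to 4.76 and 3.73 CPM in d5FS (log2 fold change 1.96, SE 0.472, adjusted p = 0.0216, edgeR). The call of Tshz1 was lost without d0 replicate 2 (1.90) and without d5FS replicate 1 (1.77) or 2 (2.14), with a highest adjusted p over all alternatives of 0.605.

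Not all known targets moved that way. Cdx1, a posterior homeobox gene, was called lower in d5FS (log2 fold change -4.86, SE 1.25, adjusted p = 0.0272, edgeR), but its d0 libraries held 0.921 and 15.99 CPM, and without d0 replicate 2 the log2 fold change was -1.66 and the call was lost. The call of Cdx1 was also lost without d5FS replicate 1 or 2. Cdx1 passed the filter on low counts through d0 only, with 9 and 4 expected counts in d3F and 5 and 5 in d5FS. Its place among the genes tested thus favoured a lower value in d5FS.

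The genes whose log2 CPM followed each member most closely over the 6 libraries were ranked by Pearson's r among 13707 genes, as a description. For Cyp26a1 these were Fignl2 (r = 0.999), Atp8a1 (0.9986) and Uhrf2 (0.9984). For Rarb they were Fndc4 (0.9981), Sox17 (0.9968) and Pilra (0.9965), of which Sox17 is the gene whose reporter defined the d5FS sort. For Rarg they were 1700019D03Rik (0.996), Enpp4 (0.9958) and Chek1 (0.9957). Dhrs3 was followed by Tmem260 (0.9881), Katnal2 and Zmynd10, and Crabp2 by Sec31a (0.9963), Aldh1a3 and Kctd15. Aldh1a2 was followed by Ufd1l (0.9994), Fancl and Arhgef15, and Crabp1 by Skp1a, Cdc5l and Rbmxl2 (0.9979 each). Pearson's r takes no account of the size of a change. Sec31a, for one, lay between 85.26 and 101.5 CPM over the 6 libraries, where Crabp2 lay between 1.95 and 20.5 CPM. The 6 points fall into 3 populations, and no p is given.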

How the data were processed

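Per the labels, total RNA was depleted of ribosomal RNA before library preparation, whereas a supplementary sample list of the study names, for each population, 1 mRNA and 1 total RNA library of paired reads without saying which replicate is which. The authors aligned reads with STAR and counted genes with RSEM on mm10 (versions and annotation not given in the sources used here), and deposited an expected count and a TPM value per gene for each library. Expected counts were rounded, filtered with filterByExpr (14539 of 24054 genes kept), scaled by TMM and tested with edgeR 4.0.16 (quasi-likelihood, all 6 libraries in 1 fit, 3 residual degrees of freedom, Benjamini-Hochberg over all genes). DESeq2 1.42.0, other filters and leaving out each library were the alternatives. TPM values as deposited by the authors served for shares between genes. CPM used the TMM-scaled totals.

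An exact permutation test of 2 against 2 libraries cannot go below p = 0.333, so none was run on single genes. The study's methods describe the 2 replicates of a population as biologically independent, and the spread between them may also hold the kind of library. Replicate libraries differed beyond sampling noise (chi-square per degree of freedom 190, 87.81 and 84.97 in d0, d3F and d5FS). Positions are from GENCODE M21 (GRCm38) and start windows from RefSeq (GRCm38.p6). The members and gene lists were chosen with earlier results of these data known. Named genes were the 9 members, each further listed retinoid gene called in any comparison (at most 20), and for each member called, with a mean of at least 1 CPM in some population, the 3 genes of highest Pearson's r. Values of some listed genes are not reported here.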

Additional observations from a re-analysis of the deposited data

How the results depend on the processing

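Of the members' calls, those of Cyp26a1 from d0 to d3F and from d0 to d5FS and of Rarb from d0 to d5FS were kept in every alternative that could give a value. Tested against a log2 fold change of 1, 7 of the members' 11 calls were kept by DESeq2 and 7 by glmTreat. Both lost Aldh1a2 and Crabp2 from d0 to d5FS and Rarb from d0 to d3F. DESeq2 also lost Dhrs3 from d0 to d5FS, and glmTreat Rarb from d3F to d5FS. Counts of genes called moved more. With DESeq2 at the same thresholds the members called were 5 (d0 to d3F, 3 in the reported analysis) and 2 (d3F to d5FS, reported 1), the other retinoid genes 6 and 8 (reported 1 and 1), and all genes 1516 and 1104 (reported 683 and 224). With DESeq2 testing against a log2 fold change of 1 the counts were 384 genes from d0 to d3F, and from d0 to d5FS 4 members (reported 7), 7 retinoid genes (reported 15) and 1035 genes (reported 3313). With glmTreat against the same change they were 0 retinoid genes and 242 genes (d0 to d3F), 0 members, 0 retinoid genes and 70 genes (d3F to d5FS), and 8 retinoid genes and 1235 genes (d0 to d5FS). With no filter on low counts they were 6 members, 9 retinoid genes and 1933 genes, then 3 members, 12 retinoid genes and 1423 genes, for the first and the second step. With at least 10 counts in every sample they were 2 retinoid genes and 357 genes (d0 to d3F), 0 members and 144 genes (d3F to d5FS, with Rarb not among the genes tested), and 8 retinoid genes (d0 to d5FS), on fewer genes tested. With only the 2 populations compared they were 430 genes (d0 to d3F) and 3 retinoid genes and 529 genes (d3F to d5FS). The causes of these differences were not tested.

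The replicate numbers shared by the populations were not taken as a pairing. Only 2 numbers exist, and no label ties them to a batch or to a kind of library. The differences between replicates correlated at 0.314 (d0 and d3F), 0.324 (d0 and d5FS) and 0.278 (d3F and d5FS) over genes. Replicate 2 had more genes with a count and the lower TMM factor in every population. Such genes numbered 16977 and 18649 in d0, 16840 and 18354 in d3F, then 16773 and 19859 in d5FS. Whether this difference follows the kind of library was not tested. With a replicate block the counts were 5 retinoid genes and 1320 genes from d0 to d3F and 8 retinoid genes and 918 genes from d3F to d5FS, all 11 calls of members were kept, and Crabp1 was also called lower from d0 to d3F (log2 fold change -2.08).

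Leaving out each library in turn gave 1 to 4 members, 0 to 5 retinoid genes and 97 to 977 genes from d0 to d3F. It gave 0 to 1 members, 0 to 3 retinoid genes and 0 to 496 genes from d3F to d5FS, and 4 to 7 members, 5 to 14 retinoid genes and 1047 to 3037 genes from d0 to d5FS. The lone library left in a population was then assumed to vary like the others. Signs turned for Rara, at -0.116 to 0.08683 from d0 to d3F, -0.38 to 0.58 from d3F to d5FS and -0.39 to 0.56 from d0 to d5FS, and for Crabp2 from d3F to d5FS, at -0.29 to 1.05. Depth limits Aldh1a2 and Cyp26b1, which had 14 or fewer expected counts in 3 and in all 6 libraries.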

Other observations

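In the d0 libraries 2 known retinoic acid targets, named here after their values were seen, stood apart in replicate 2. Stra8, a germ cell gene that retinoic acid switches on, had 7 expected counts in d0 replicate 1 and 149 in replicate 2, and 1 or fewer in every d3F and d5FS library. Cdx1 had 21 and 312 expected counts in the same d0 libraries and 9 or fewer elsewhere. Aldh1a2 was also higher in d0 replicate 2, with 33 and 72 expected counts, whereas the targets Cyp26a1, Dhrs3 and Rarb were not, with 214 and 147, 47 and 24, and 15 and 7. A cause was not tested.

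Beside Cyp26a1 and Rarb, 18 genes had a direct repeat 5 in a start window. Of these 5 were in the tables and 2, Blvrb and Prokr2, were tested, and edgeR called 0 of them in any of the 3 comparisons. Blvrb, the enzyme that reduces biliverdin, had log2 fold changes of -0.06 (SE 0.354) from d0 to d3F and -0.52 (SE 0.356) from d0 to d5FS, and Prokr2, a prokineticin receptor, stayed under 0.4 CPM on average in each population.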
